A study of Mus musculus with 8 samples.

Results

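Cck and Nppb are genes of secreted peptide hormones, and the 2 rows that carry these symbols, of 31,053 genes in the tables, were followed through 8 B16F10 tumours. B16F10 is a mouse melanoma cell line, and its cells were injected under the skin of C57BL/6 mice. Every mouse carried Rosa26::CreERT2, a tamoxifen-driven recombinase active in all tissues, and every mouse received tamoxifen, so the groups differed in whether exons of Atf4 were flanked by loxP sites. The 4 Atf4wt/wt hosts kept the gene and the 4 Atf4D/D hosts lost it, whereas the injected melanoma cells kept Atf4 in both groups. Mice were 12 weeks old by their labels, and the tumours were taken at 300 mm3. Atf4wt/wt replicates 1 and 3 and Atf4D/D replicates 2, 3 and 4 came from males, and the other tumours from females.

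Droplet-based single-cell RNA sequencing gave 1 library per tumour, in which a unique molecular identifier (UMI) marks each captured transcript. The libraries held 37,283,598 to 74,942,137 UMIs in 4,231 to 8,696 barcodes, and 28,411 of 41,925 barcodes passed the limits on genes and mitochondrial counts. Of these, 23,709 were melanoma-like, 731 were CAF-like (cancer-associated fibroblasts), 898 were immune and 36 were endothelial-like, 2,796 were left unnamed, and 241 cells of the cluster with the highest mitochondrial share, 230 of them from Atf4wt/wt replicate 4, were left out. Library pairs shared 2 to 14 barcode sequences. Levels are given as UMIs of the gene per 1,000,000 UMIs of the summed cells (CPM). Atf4 itself, the targeted gene, lay between 277.7 and 323.3 CPM in CAF-like cells of the 4 Atf4wt/wt tumours and between 90.0 and 171.5 CPM in those of the 4 Atf4D/D tumours (edgeR quasi-likelihood test, adjusted p = 0.0374), and in melanoma-like cells it lay between 262.0 and 409.6 CPM and between 310.5 and 442.1 CPM (adjusted p = 0.957).

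Cholecystokinin, the product of Cck, is a gut hormone that makes the gallbladder contract and is also one of the most abundant neuropeptides of the brain. It is made as a precursor that is cut, trimmed, amidated and sulphated in the secretory pathway, and it acts on G protein-coupled receptors, Cckar and Cckbr. B-type natriuretic peptide, the product of Nppb, is released by heart muscle under wall stress, lowers blood pressure, and acts on the guanylyl cyclase receptor Npr1, and Npr3 clears it from the circulation. Neither peptide is a classical product of pigment cells. The pair was chosen by its measured levels, with values of these data known, among them the genotype difference of Cck in CAF-like cells and levels across cell groups, so these are described here without a test. Which values chose Nppb is not given in the sources used here, and its comparison between hosts in melanoma-like cells may not be independent of that choice.

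Both genes are protein-coding, and both were placed with the GENCODE M21 annotation of GRCm38. Cck (ENSMUSG00000032532) lies on the minus strand of chromosome 9 at chr9:121489824-121495694, with 3 exons in its first-listed transcript. Nppb (ENSMUSG00000029019) lies on the plus strand of chromosome 4 at chr4:147985788-147987205, also with 3 exons. The sequence just before each annotated start is shown because the levels described below follow pigment genes in one case and hypoxia genes in the other, and the capitals mark every match, on either strand, to CACGTG (the E-box), ACGTG or GCGTG (the core of a hypoxia response element, overlapping the E-box where CACGTG occurs), TGACG (the first letters of a cyclic AMP response element) and TATAA. The bases are RefSeq's (GRCm38.p6), 5′ to 3′ on the gene's strand, chr9:121495695-121495944 (minus strand) for Cck and chr4:147985650-147985785 (plus strand) for Nppb.
Cck: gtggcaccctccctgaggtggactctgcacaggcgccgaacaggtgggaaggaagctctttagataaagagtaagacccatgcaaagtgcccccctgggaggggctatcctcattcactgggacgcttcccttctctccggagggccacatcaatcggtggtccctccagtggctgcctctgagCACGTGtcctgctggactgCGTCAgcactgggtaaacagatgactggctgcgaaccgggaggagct
Nppb: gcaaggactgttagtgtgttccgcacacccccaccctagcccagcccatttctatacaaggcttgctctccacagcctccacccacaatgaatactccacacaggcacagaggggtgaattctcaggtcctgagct
The 250 bases of Cck held 1 CACGTG, 66 bases before the start, a word found in 6.02% of 32,851 promoter windows of that length, and both strands of this word read ACGTG, which was found in 16.6% of them. They also held 1 TGACG on the minus strand (17.8% of windows) and neither GCGTG nor TATAA. The 136 bases of Nppb held none of these words. A match is a description of the letters and not a site in use.

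Both genes were detected in the melanoma-like cells of every tumour. Cck in melanoma-like cells stood at 36.2, 17.8, 85.0 and 58.3 CPM in Atf4wt/wt replicates 1 to 4 and at 124.9, 87.6, 15.8 and 108.4 CPM in Atf4D/D replicates 1 to 4. The groups overlapped, since the lowest tumour of all was Atf4D/D replicate 3, and the range over the 8 tumours was wide. Nppb in melanoma-like cells stood at 21.96, 24.2, 18.3 and 14.4 CPM in Atf4wt/wt replicates 1 to 4 and at 33.7, 30.9, 26.0 and 45.1 CPM in Atf4D/D replicates 1 to 4. Every Atf4D/D tumour was above every Atf4wt/wt tumour for Nppb, and 5.38% of the 12,554 genes tested in melanoma-like cells showed the same order.

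**Figure D1:**
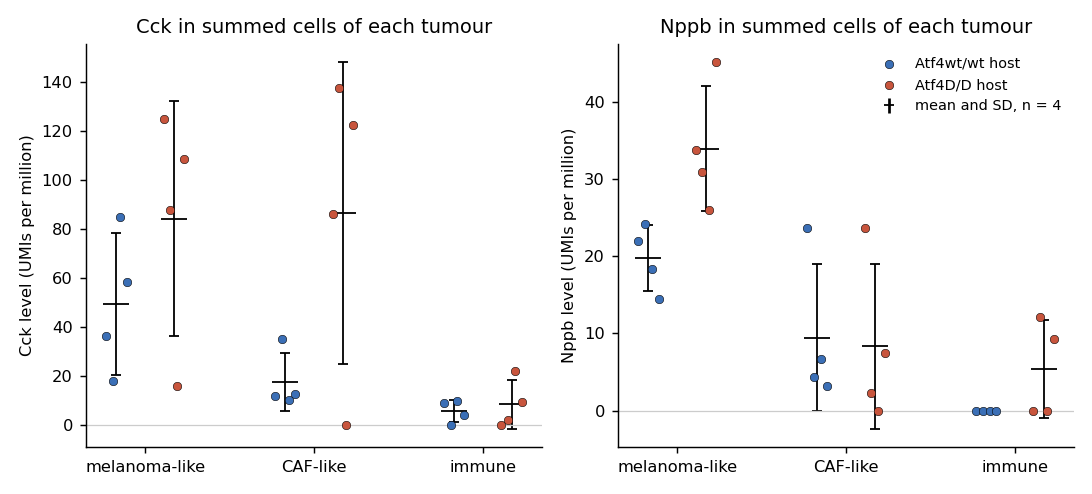
Level of Cck (left) and Nppb (right) in the summed melanoma-like, CAF-like and immune cells of each tumour, in CPM. Each point is 1 tumour, horizontal lines are group means and bars are SDs over 4 tumours. Nppb in melanoma-like cells lay between 14.4 and 24.2 in Atf4wt/wt hosts and between 26.0 and 45.1 in Atf4D/D hosts, and Cck overlapped between hosts in each class.

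Neither member passed the test between host genotypes in melanoma-like cells. In the quasi-likelihood test of edgeR, with p-values adjusted by Benjamini-Hochberg over 12,554 genes, 0 of the 2 members had an adjusted p under 0.05, where 0.0319% of all genes did. Nppb was higher in Atf4D/D hosts by 0.74 on the log2 scale (standard error 0.18, 95% interval 0.34 to 1.13, unadjusted p = 0.00167, adjusted p = 0.208), and 11.2% of all genes had an unadjusted p under 0.05. DESeq2 on the same sums gave Nppb an adjusted p of 0.00933 and called 0.948% of all genes (119), and an edgeR fit on every gene with at least 1 count gave it 0.0417. Cck differed by 0.75 on the log2 scale (standard error 0.55, 95% interval -0.45 to 1.94, adjusted p = 0.634). Its size depended on single tumours: it was 1.10 without Atf4D/D replicate 3, 1.16 without Atf4wt/wt replicate 3, 0.47 without Atf4wt/wt replicate 2, 0.47 without Atf4D/D replicate 1 and 0.18 in males only, and it passed under none of these (adjusted p 0.459 to 0.967).

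The share of cells that carried a UMI gave a second measure of the genotype difference. After each cell was thinned to 2,000 UMIs, Nppb was found in 4.14%, 4.41%, 3.42% and 2.93% of melanoma-like cells of Atf4wt/wt replicates 1 to 4 and in 5.94%, 5.60%, 5.14% and 7.37% of those of Atf4D/D replicates 1 to 4. The groups did not overlap, with means of 3.72% ± 0.675 and 6.01% ± 0.964 (SD, n = 4). How many of all genes separate this way by thinned share is not given here. By summed level, 5.38% of the genes tested did so with Atf4D/D higher. Permuting the genotypes in all 70 possible ways (exact permutation test, two-sided) gave p = 0.0286, the smallest value it can give, and 0.0571 after adjustment over the 2 genes. For Cck the means were 2.38% ± 0.961 and 3.34% ± 1.58 (SD, n = 4; exact permutation p = 0.314, adjusted p = 0.314). Without thinning the means were 12.8% and 18.9% for Nppb and 5.07% and 7.77% for Cck.

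Hypoxia genes were also mostly higher in Atf4D/D hosts. Of the 10 genes of a hypoxia list (Car9, Bnip3, Ndrg1, Slc2a1, Vegfa, Egln3, Pgk1, Ero1l, Ankrd37 and Adm), 9 were higher in melanoma-like cells of Atf4D/D hosts, with a median log2 difference of 0.32 against -0.0033 over all genes, and 0 passed the edgeR test (2 had an unadjusted p under 0.05, and 0 passed by DESeq2). The hypoxic cluster described below held 13.6%, 22.2%, 11.5% and 4.34% of melanoma-like cells in Atf4wt/wt replicates 1 to 4 and 20.3%, 11.3%, 15.1% and 22.3% in Atf4D/D replicates 1 to 4. When each cluster was given the same weight in every tumour, Nppb lay between 22.7 and 29.0 CPM in Atf4wt/wt hosts. In Atf4D/D hosts it lay between 29.9 and 42.4 CPM. The means were then 25.1 and 35.7 CPM, against 19.7 and 33.9 CPM without this weighting. Hypoxia was not the only list to move. Of 8 interferon-induced genes, 0 were higher (median -0.87, 4 with an unadjusted edgeR p under 0.05), and of 10 pigment genes, 7 were (median 0.096, 4 such genes), where 11.2% of all genes had such a p. The S phase, G2/M, stress and immediate early lists had medians of 0.029, -0.034, -0.17 and -0.11 (0, 0, 2 and 1 such genes). By edgeR or DESeq2, 0 genes of these lists passed. The part of the hypoxia genes, of the other lists or of the cluster shares in the Nppb difference was not tested.

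The UMIs of the 2 genes were spread over the melanoma-like cells in very different ways. Cck was concentrated in rare cells: 1,477 of 23,709 melanoma-like cells (6.23%) held any Cck UMI, and 323 cells (1.36%) with 10 or more UMIs held 85.5% of the 15,918 Cck UMIs. The highest cell held 316 Cck UMIs, and 79 cells held as much as all others together. Nppb was found in 3,751 cells (15.8%), of which 2,350 held 1 UMI, and the 33 cells with 10 or more held 5.93% of its 6,933 UMIs. The variance of UMIs per cell was 72.4 times the mean for Cck and 3.08 times the mean for Nppb.

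**Figure D2:**
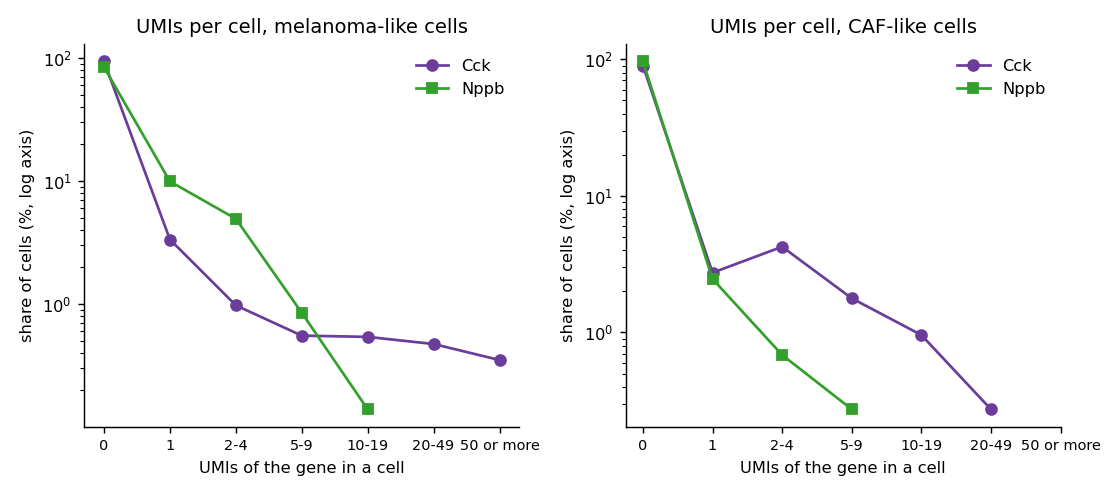
Share of melanoma-like (left) and CAF-like (right) cells, on a log axis in percent, by the number of UMIs of Cck or Nppb in the cell; no point is drawn where no cell fell. The Cck line runs on to 50 or more UMIs in melanoma-like cells, where the highest Nppb cell held 18.

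Cells rich in Cck occurred in every tumour. The share of melanoma-like cells with 10 or more Cck UMIs was 1.08%, 0.622%, 1.95% and 0.970% in Atf4wt/wt replicates 1 to 4 and 2.39%, 1.80%, 0.389% and 2.31% in Atf4D/D replicates 1 to 4. These cells held between 70.5% and 90.2% of the Cck UMIs of their tumours, and in Atf4D/D replicate 3 a single cell held 21.1% of them. Without these 323 cells the genotype difference of Cck was 0.45 on the log2 scale (standard error 0.36). Markers of neurons and of enteroendocrine cells, the classical producers of cholecystokinin, were nearly all absent from them. Of 5 neuronal markers, Snap25, Stmn2 and Syt1 had 0 UMIs over the 323 cells and Rbfox3 had 1, while Tubb3 stood at 52.5 CPM there and at 74.0 CPM in all melanoma-like cells. Of 5 enteroendocrine markers, Chga, Neurod1, Sct and Gcg had 0 UMIs and Chgb had 1.

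Cck in melanoma cells followed the pigment program. Within each tumour, melanoma-like cells were split into 4 bins of equal size by the summed level of a pigment list (Mitf, Tyr, Tyrp1, Dct, Pmel, Mlana, Slc45a2, Trpm1, Oca2 and Gpnmb, the factor, enzymes and melanosome proteins of pigment cells). From the lowest to the highest bin, Cck went from 7.94 to 90.1, 0.649 to 54.0, 4.91 to 216 and 1.30 to 223 CPM in Atf4wt/wt replicates 1 to 4. In Atf4D/D replicates 1 to 4 it went from 10.3 to 294, 4.84 to 268, 1.27 to 49.96 and 9.87 to 336 CPM. The highest bin was above the lowest in 8 of 8 tumours, by a median of 41.7 times (11.3 to 172), and no Cck level of a lowest bin reached that of any highest bin. The cells of both bins were of similar depth, with median UMIs per cell of 10,463 and 9,499. Nppb in the same bins had medians of 19.6 and 26.2 CPM and was higher in the highest bin in 7 of 8 tumours, by a median of 1.33 times.

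Nppb in melanoma cells followed the hypoxia program. Between the lowest and the highest bin by the hypoxia list, Nppb went from 8.74 to 48.1, 14.03 to 45.5, 8.75 to 47.5 and 7.09 to 32.97 CPM in Atf4wt/wt replicates 1 to 4. In Atf4D/D replicates 1 to 4 it went from 10.9 to 85.1, 17.5 to 71.3, 11.0 to 61.0 and 14.5 to 108 CPM. The highest bin was above the lowest in 8 of 8 tumours by a median of 5.47 times (3.24 to 7.82), and most of the step lay between the third and the highest bin. Cck was higher in the most hypoxic bin in 3 of 8 tumours, with medians of 57.3 CPM in the lowest and 57.7 CPM in the highest bin. Its ratio ran from 0.202 to 1.37, the lowest in Atf4wt/wt replicate 2, where Cck fell from 24.0 to 4.86 CPM.

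**Figure D3:**
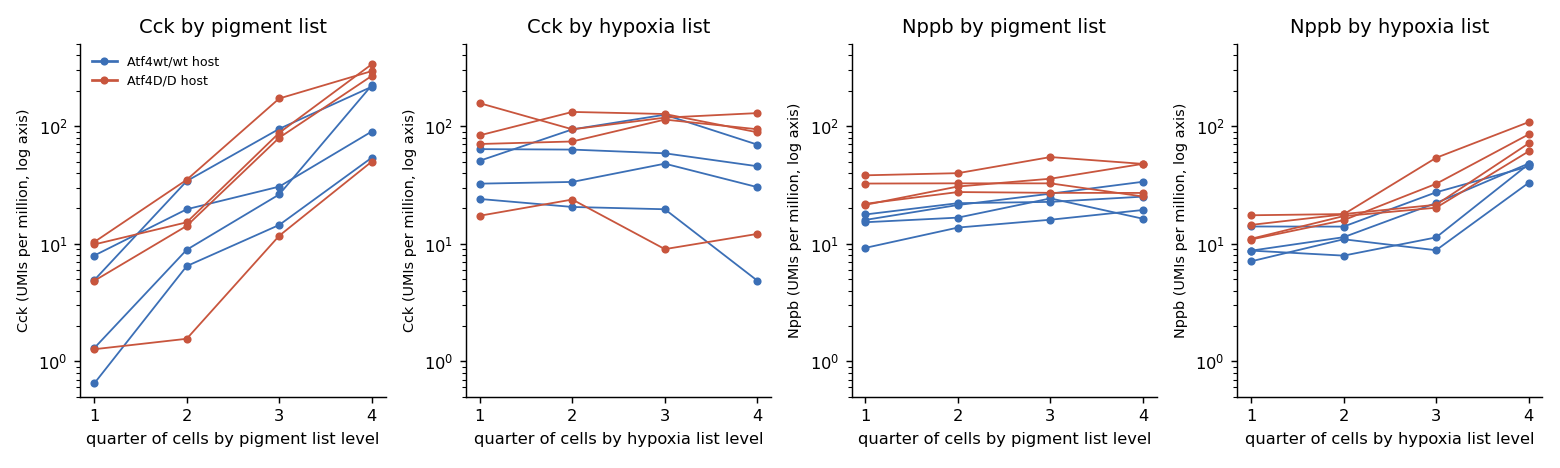
Cck and Nppb in 4 equal bins of the melanoma-like cells of each tumour, ordered by the level of the pigment list or the hypoxia list, in CPM on a log axis; each line is 1 tumour. Cck climbs with the pigment list by 11.3 to 172 times and Nppb with the hypoxia list by 3.24 to 7.82 times. From the lowest to the highest bin, the ratio is 0.202 to 1.37 for Cck by hypoxia and 0.776 to 2.23 for Nppb by pigment.

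Other programs were followed in the same way, and both genes were lower where G2/M transcripts were most abundant. Nppb was lower in the bin of cells with most S phase and with most G2/M transcripts in 8 of 8 tumours each, with median ratios of 0.332 and 0.331 to the lowest bin, although the cycling cells were deeper (13,278.5 and 14,286.5 against 8,831 and 8,599 median UMIs). Nppb was also higher with immediate early genes in 8 of 8 tumours (median ratio 1.96). Cck was lower in the G2/M-rich bin in 8 of 8 tumours (median ratio 0.633) and in the S phase-rich bin in 6 of 8 (median ratio 0.747). In the stress-rich bin Cck was lower in 6 of 8 tumours (median ratio 0.437) and Nppb in 7 of 8 (median ratio 0.722). In the bin richest in interferon-induced genes Cck was higher than in the lowest bin in 8 of 8 (median ratio 2.06) and Nppb in 1 of 8 (median ratio 0.800). In Atf4wt/wt replicates 1 and 2 and Atf4D/D replicates 1, 3 and 4, the interferon list stood at 0 CPM in the lowest bin and in the next. Cells were split between those bins without a difference in list level, so these counts and ratios depend on the split. In Atf4D/D replicate 3, Cck was at 4.81 and 19.9 CPM in them and at 8.94 CPM in the highest bin. Cluster 10, led by interferon-induced genes, did not show a higher Cck level in every tumour. Cck was above the rest of the melanoma-like cells there in 4 of 8 tumours (median ratio 0.883).

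The 9 melanoma-like clusters, formed without Cck and Nppb among the genes used, showed the same division. Cck was highest in cluster 0, whose leading genes were Kcnj13, Mgll, Coq8a, Smtnl1 and Vamp5, with Trpm1, a channel of melanocytes, among the next. Its level there was 62.6, 44.8, 266 and 108 CPM in Atf4wt/wt replicates 1 to 4 and 310, 209, 15.6 and 392 CPM in Atf4D/D replicates 1 to 4. The cluster stood above the rest of the melanoma-like cells in 7 of 8 tumours, with a median ratio of 3.04 (0.983 to 5.39), and was first of the 9 in 5 of 8. Cck was lowest by its median in cluster 1, led by the stress hormone gene Fgf21 (median 16.5 CPM, 1.33 to 84.0), and the clusters between them overlapped widely.

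Nppb had a single peak among the clusters. Cluster 2, led by Espn, Selenbp1, Car9 and Pkp2 and by Nppb itself, and with the hypoxia genes Bnip3 and Ero1l among its next genes, held 76.7, 71.2, 87.2 and 121 CPM in Atf4wt/wt replicates 1 to 4 and 117, 129, 89.2 and 136 CPM in Atf4D/D replicates 1 to 4. It was first of the 9 in 8 of 8 tumours, and its level was 5.04 to 11.2 times that of all other melanoma-like cells pooled. Cluster 8, which joined hypoxia genes with G2/M genes such as Bub1 and Mki67, came second by its median (48.0 CPM, 23.9 to 99.2), closest to cluster 2 in Atf4D/D replicate 4 with 99.2 against 136 CPM, and was above the rest in 7 of 8 tumours. Cluster 4, led by Cenpa, Ccnb2 and Cdc20, and cluster 5, led by Nusap1, Cenpf and Prc1, had the lowest medians, 9.15 and 8.31 CPM. They did not differ from each other beyond their ranges. The G2/M list stood at 913 CPM in cluster 4 and 3,718 CPM in cluster 5, against 1,145 CPM in all melanoma-like cells. Cells with an Nppb UMI made up 36.6% of cluster 2 and 31.1% of cluster 8, and 15.0% and 8.28% after thinning, against 1.51% in cluster 5.

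**Figure D4:**
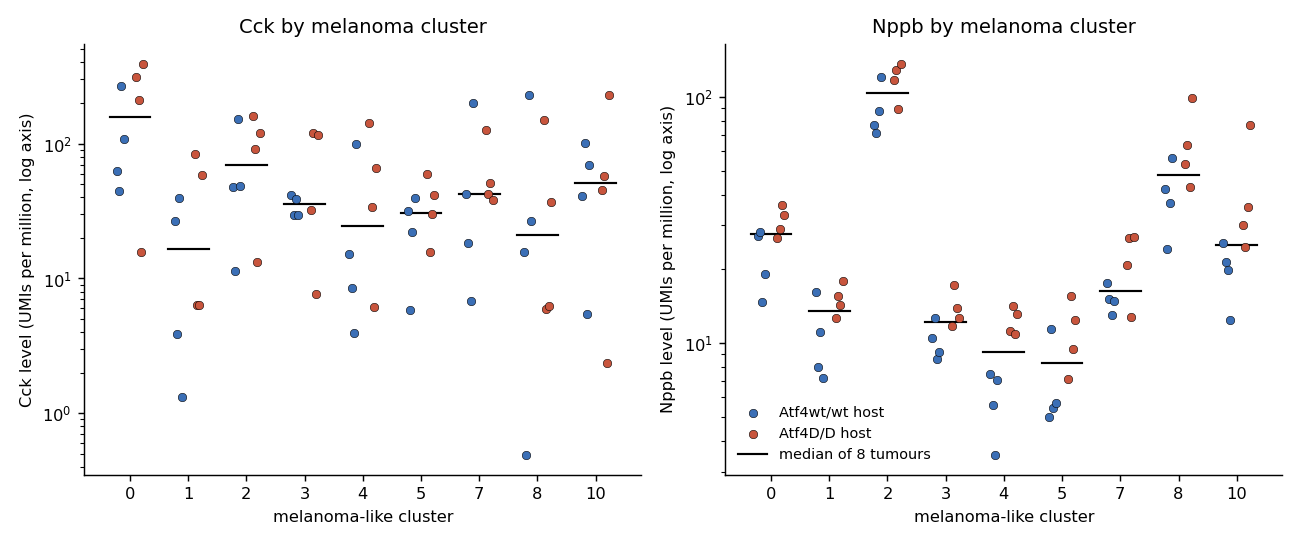
Cck (left) and Nppb (right) in each of the 9 melanoma-like clusters, in CPM on a log axis; points are tumours and black lines medians of 8 tumours. Cluster 2 is above every other cluster for Nppb in each tumour (71.2 to 136), and Cck has its highest median in cluster 0 (159) with wide overlap.

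Cells rich in Cck also differed within the clusters. Cells with 10 or more Cck UMIs made up 2.80% of cluster 0 and 0.441% of cluster 1, and occurred in all 9 clusters. In each of the 9 clusters, the pigment list was higher in these cells than in cells without a Cck UMI, for example 25,373 against 20,770 CPM in cluster 0 and 22,964 against 17,228 CPM in cluster 7. The hypoxia list was higher in them in 3 of the 9 clusters, and stood at 2,501 against 2,620 CPM in cluster 0. Cells were pooled over tumours for both lists, and each tumour gave 13 to 64 Cck-rich cells, so differences between tumours are not separated. Clusters 8 and 10 held 8 and 11 such cells, from 4 and 6 tumours.

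The genes most like each member gave the same picture. Over 72 sums of a cluster in a tumour, with the tumour mean removed, Pearson's r was taken for 7,829 genes as a description, since the sums share libraries and depth. The 5 genes nearest to Cck were Mgll (r = 0.605), a monoacylglycerol lipase, Fbln5 (0.572), an elastic fibre protein, Pde4d (0.546), a cyclic AMP phosphodiesterase, Pmel (0.530), the melanosome fibril protein, and Ptgds (0.526), a prostaglandin D synthase. The 5 nearest to Nppb were Ugp2 (0.944), an enzyme of glycogen synthesis, Csrp1 (0.943), a LIM protein of the actin cytoskeleton, Anxa4 (0.937), an annexin, Cited1 (0.930), a transcriptional co-regulator of melanocytes, and Rtn4 (0.923), a reticulon of the endoplasmic reticulum. Cck and Nppb were related to each other at r = 0.229. The mean r of the measured hypoxia list genes with Nppb was 0.780, and that of the pigment list with Cck was 0.430.

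Cck and Nppb occurred together in few cells. Of the 1,477 melanoma-like cells with Cck, 255 also held Nppb (17.3%), against 15.7% of the cells without Cck, where the median depths were 11,550 and 10,250.5 UMIs. Across the 8 tumours, the log2 levels of the 2 genes in melanoma-like cells had a Pearson r of 0.318 (exact permutation p = 0.440) and a Spearman rho of 0.524 (exact permutation p = 0.197), the single relation tested. Without Atf4D/D replicate 3 and Atf4wt/wt replicate 2, the tumours farthest from the median Cck level, r was 0.623 (exact permutation p = 0.185, n = 6). Neither test passed, and each host genotype held too few tumours for a value of its own.

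Cck was also counted in fibroblasts. The CAF-like cells of Atf4wt/wt replicates 1 to 4 held 4, 8, 3 and 4 Cck UMIs (11.8, 35.2, 10.0 and 12.6 CPM), and those of Atf4D/D replicates 1 to 4 held 62, 61, 0 and 181 (86.0, 137, 0 and 122 CPM). The 3 Atf4D/D tumours with Cck lay above all Atf4wt/wt tumours, and the tumour without it, Atf4D/D replicate 3, had 10 CAF-like cells with 40,826 UMIs. The log2 difference was 2.77 (standard error 0.42) and 2.85 without that tumour, and it is the value that chose the gene. Of 4,638 genes tested in CAF-like cells, 0.0431% were called.

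The UMIs behind these levels came from few cells. In Atf4wt/wt replicates 1 and 3, all Cck UMIs of CAF-like cells were in 1 cell each, and in replicates 2 and 4 the highest cell held 5 of 8 and 3 of 4. In Atf4D/D replicates 1, 2 and 4, Cck was found in 16 of 126, 10 of 97 and 39 of 242 CAF-like cells, with at most 24, 24 and 16 UMIs in a cell. With the highest cell of each tumour left out, the Atf4wt/wt tumours held 0, 3, 0 and 1 Cck UMIs and Atf4D/D replicates 1, 2 and 4 held 38, 37 and 165. Leaving out cells by their Cck count takes most from the tumours with fewest UMIs, so no difference is given for it.

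Cck in CAF-like cells was concentrated in a hypoxic subcluster. Subcluster 1, 198 cells led by Grem1, a BMP antagonist, with Pgf, Slc2a3, Egln3 and Ndrg1, held 219 of the 323 Cck UMIs of CAF-like cells, a level of 301 CPM, and 19.7% of its cells had a Cck UMI. By tumour its level was 88.1, 105, 38.3 and 0 CPM in Atf4wt/wt replicates 1 to 4 and 329, 806, 0 and 315 CPM in Atf4D/D replicates 1 to 4. These values rest on 3 to 68 cells per tumour, and Cck is itself among the leading genes of the subcluster. They were made by 4, 2, 3 and 0 Cck UMIs in Atf4wt/wt replicates 1 to 4 and by 54, 60, 0 and 96 in Atf4D/D replicates 1 to 4. The 0 of Atf4wt/wt replicate 4 came from 30,966 UMIs and that of Atf4D/D replicate 3 from 9,954, too few to bound the level closely. Its hypoxia list level was 6,723 CPM, against 773 to 3,045 CPM in the other subclusters. The subcluster held 58 of 256 CAF-like cells of Atf4wt/wt hosts and 140 of 475 of Atf4D/D hosts. Of 9 hypoxia list genes tested in CAF-like cells, 9 were higher in Atf4D/D hosts (median log2 difference 0.53, against -0.0125 over all genes). By edgeR 0 passed and 2 had an unadjusted p under 0.05, as 6.51% of all genes did. The part of either in the Cck difference was not tested.

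The other fibroblast groups held less. Subcluster 0, 327 cells with Cilp, Lrrc15 and Cxcl9, had 76 Cck UMIs (42.3 CPM), of which 61 came from Atf4D/D replicate 4. Subcluster 3, 75 cells with Pi16 and Clec3b, and subcluster 4, 54 cells with Rgs5, a gene of pericytes, had 0 Cck UMIs, which allows levels of up to 11.0 and 16.9 CPM. Cck was higher in the more hypoxic than in the less hypoxic CAF-like cells in 6 of 8 tumours, with medians of 37.6 and 5.17 CPM. In Atf4wt/wt replicates 1 and 3 this rested on 1 cell each, and Atf4D/D replicate 3 held 0 Cck UMIs. In melanoma-like cells, by contrast, 3 of 8 tumours had the higher Cck level in the most hypoxic bin, and the difference between the classes was not tested.

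**Figure D5:**
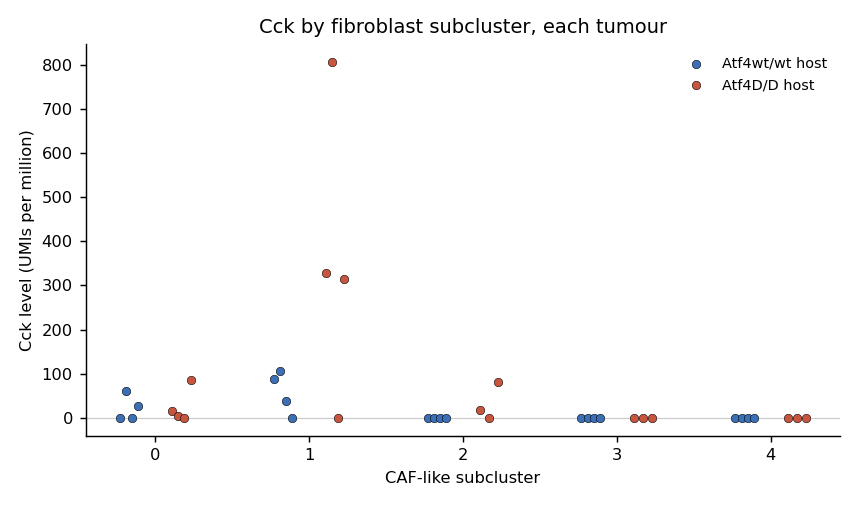
Cck level in the 5 CAF-like subclusters of each tumour, in CPM; points are tumours. Subcluster 1 reaches 315 to 806 in 3 Atf4D/D tumours and at most 105 in Atf4wt/wt tumours, and subclusters 3 and 4 lie at 0.

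Melanoma RNA in the fibroblast droplets was measured beside this. A further 77 CAF-like cells (subcluster 2) carried both collagen and melanoma markers, and without them Cck stood at 17.8, 44.7, 10.9 and 18.0 CPM in Atf4wt/wt replicates 1 to 4 and at 116, 174, 0 and 133 CPM in Atf4D/D replicates 1 to 4. Scaled by the melanoma markers found in the same cells, melanoma RNA would carry 3.85, 0.839, 2.97 and 4.13 Cck UMIs into all CAF-like cells of Atf4wt/wt replicates 1 to 4, where 4, 8, 3 and 4 were counted. In Atf4D/D replicates 1, 2 and 4 it would carry 24.7, 7.31 and 29.5, where 62, 61 and 181 were counted. Most of the markers lay in subcluster 2, which held 0 Cck UMIs in the Atf4wt/wt tumours. In Atf4D/D replicates 1, 2 and 4 it held 4, 0 and 24, where the scaling would give 20.9, 5.60 and 22.3. Over all tumours subcluster 2 held 28, where the scaling would give 58.2. Outside it, melanoma RNA would bring 0.741, 0.111, 0.981 and 0.630 Cck UMIs in Atf4wt/wt replicates 1 to 4, where the same 4, 8, 3 and 4 were counted. Over all tumours it would bring 5.71 Cck UMIs into subcluster 1, where 219 were counted, and 15.2 into all CAF-like cells without subcluster 2, where 295 were counted. For Nppb in the same cells the values were 5.65 and 13, and 28 of the 41 Nppb UMIs of CAF-like cells lay in subcluster 2. Nppb in CAF-like cells was below the expression filter and was not tested between genotypes.

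Immune cells held fewer Cck UMIs than such carry-over would bring, and about as many Nppb UMIs. Immune cells had 11 Cck UMIs, where melanoma markers would bring 28.1, and 9 Nppb UMIs, where they would bring 10.1. An immune subcluster of 77 cells with a pigment list level of 10,527 CPM held 5 of these Nppb UMIs and 0 Cck UMIs. The pigment list lay between 1,577 and 2,771 CPM in the other immune subclusters. The expected Cck number is a mean, while 1.36% of melanoma-like cells held 85.5% of Cck UMIs, so a count from few droplets can lie far from it. A Cck UMI was found in 1.22% of immune cells at a median of 1,327.5 UMIs, against 6.23% of melanoma-like cells at 10,305, and after thinning in 0 of 288 immune cells (a share of at most 1.04% by the limit of 3 counts), 2.81% of melanoma-like cells and 7.42% of CAF-like cells. For Nppb the thinned shares were 0.694%, 4.85% and 1.39%. The 36 endothelial-like cells held 0 UMIs of either gene, which allows up to 28.6 CPM.

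The receptors of cholecystokinin were not detected in the tumour cells. Of the 11 other genes of the cholecystokinin system, the receptors Cckar and Cckbr and the prohormone convertase Pcsk1 had 0 UMIs in the 257,183,398 UMIs of melanoma-like cells, Gast, the gene of the related hormone gastrin, had 2 and the convertase Pcsk2 had 3. Both receptors were also at 0 in CAF-like cells. Other processing genes were detected. Cpe, the carboxypeptidase that trims prohormones, lay at 253 CPM on average in melanoma-like cells. Ctsl, a protease also able to cut prohormones, lay at 198 CPM, and Pam, which amidates peptide ends, at 17.3 CPM. Of the 6 genes tested between genotypes, 0 passed by edgeR, 1 had an unadjusted p under 0.05 (Pam, higher in Atf4D/D hosts by 0.27 on the log2 scale, adjusted p = 0.310), 0 passed by DESeq2, and the median difference was 0.12.

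The natriuretic system was likewise uneven. The paralogues Nppa and Nppc had 15 and 2 UMIs in melanoma-like cells, and Corin, the heart protease of the Nppa precursor, had 8. Furin, a convertase able to cut the Nppb precursor, lay at 20.7 CPM on average, the receptor Npr2 at 5.94 CPM and the receptor Npr1 at 2.38 CPM. Of the 4 genes tested, 0 passed by edgeR, 0 had an unadjusted p under 0.05, 0 passed by DESeq2, and all 4 differences were above 0 with a median of 0.12. Of 5 heart muscle markers, Myh6 and Actc1 had 0 UMIs in melanoma-like cells, Nppa 15, Tnni3 10 and Tnnt2 440 (1.71 CPM).

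Among 26 other peptide hormone genes, 8 had 0 UMIs in melanoma-like cells, and the highest were Adm, adrenomedullin, at 23.4 CPM, Fgf21 at 11.9 CPM and Pomc, the melanocortin precursor, at 8.399 CPM. Of the 7 tested, 0 passed by edgeR, 1 had an unadjusted p under 0.05 (Apln, higher by 0.97 on the log2 scale, adjusted p = 0.274), and 0 passed by DESeq2, with a median of 0.17. The granins, which pack hormones into dense-core granules, were close to absent: Scg5 had 60 UMIs, Chgb 14 and Vgf 4, and none of the 6 passed the expression filter. In CAF-like cells 3, 1, 3 and 0 genes of the 4 lists could be tested, and 0 passed by edgeR (1, 0, 1 and 0 had an unadjusted p under 0.05, and 0 passed by DESeq2, which called 0.0862% of all genes), while 6.51% of all genes there had an unadjusted p under 0.05.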

How the data were processed

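Single-cell RNA sequencing libraries of 8 tumours were analysed, 4 per host genotype. The authors deposited unnormalised UMI counts per gene and barcode, made with Cell Ranger 3.1.0 against GRCm38, and their processing notes also name Seurat 3.2.1. Libraries held 37,283,598 to 74,942,137 UMIs. Shares of single classes carry counting error only.

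Barcodes with 200 to 5,000 genes and at most 7.5% mitochondrial UMIs were kept and clustered in Seurat 5.3.0 (2,000 variable genes without Cck and Nppb, 20 components, resolution 0.6, 15 clusters). Classes were named from marker lists, no doublet caller was run, and CAF-like cells with both collagen and melanoma markers (subcluster 2) were also left out as an alternative. Clusters were rebuilt here and can differ from those of the study. Counts were summed per tumour and class (at least 10 cells) and tested with edgeR 4.0.16 (quasi-likelihood, TMM, filterByExpr, Benjamini-Hochberg over all genes), with DESeq2 1.42.0 as an alternative. Shares of cells were compared after thinning to 2,000 UMIs, leaving out shallower cells, with an exact permutation test. The share of a count of 0 uses 3 counts as its limit. The correlation used log2(CPM + 1). Each group's tumours came from separate mice. The testing code was tested on simulated data. Other alternatives were leaving out each tumour, the replicate block, sex, other scaling, filters and thinning depths.

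Named genes were the members, the 5 genes most like each and the 3 highest of each list. Tnnt2 and other genes outside this rule were named after their values were seen. The members and lists were chosen with earlier results of these data known.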

Additional observations from a re-analysis of the deposited data

Results flagged for a closer look

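In groups of 4 tumours, the gap between an extreme tumour and its nearest neighbour was compared with the range of the group by Dixon's criterion. Of 52 groups checked, 6 had a tumour that stood apart, and chance alone sets about 1 in 20 apart. For Cck, Atf4wt/wt replicate 2 stood at 35.2 CPM in CAF-like cells (others 10.0 to 12.6), Atf4wt/wt replicate 4 at 99.7 CPM in melanoma-like cluster 4 (others 3.93 to 15.2), Atf4wt/wt replicate 3 at 231 CPM in cluster 8 (others 0.489 to 26.6) and Atf4D/D replicate 1 at 125 CPM in cluster 7 (others 37.9 to 51.0). For Nppb, Atf4wt/wt replicate 1 stood at 4.45 CPM in CAF-like cells without cells of both markers, a level made by 1 UMI (others 0), and Atf4wt/wt replicate 2 at 11.4 CPM in cluster 5 (others 4.98 to 5.68).

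Both genes were also counted in barcodes outside the classes compared in the report, which enter the alternatives that add unnamed cells or take every deposited barcode. The 12,842 barcodes over the mitochondrial limit held 12922 Cck UMIs (137 CPM) and 1989 Nppb UMIs (21.1 CPM). The 622 barcodes over the gene limit held 1188 Cck UMIs (71.8 CPM) and 231 Nppb UMIs (13.96 CPM). The 2,796 unnamed cells held 177 Cck UMIs (38.6 CPM) and 62 Nppb UMIs (13.5 CPM). The 241 cells of the cluster with the highest mitochondrial share held 71 Cck UMIs, found in 24.9% of them, and 15 Nppb UMIs.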

How the results depend on the processing

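The genotype difference of Nppb in melanoma-like cells stayed above 0 under 18 alternatives (0.57 to 0.89 on the log2 scale, adjusted p 0.00933 to 0.644). It passed the threshold with the DESeq2 test (0.74, adjusted p = 0.00933) and with every gene of at least 1 count in edgeR (0.73, adjusted p = 0.0417), and under no other alternative. That of Cck passed under none of 18 (0.18 to 1.16, adjusted p 0.459 to 0.967). The number of genes called in melanoma-like cells, 4, was 119 with the DESeq2 test, 46 with every gene of at least 1 count, 0 with the replicate block, 0 with sex as a covariate, 2 in males only, 1 with the unnamed cells added and 0 over every deposited barcode. It ran from 0 to 21 when 1 tumour was left out, the highest without Atf4D/D replicate 3. In CAF-like cells the number, 2, was 4 with the DESeq2 test, 102 with every gene of at least 1 count, 0 with the replicate block, 0 with sex as a covariate, 1 without cells of both markers, 1 without the cell of most Cck UMIs in each tumour (chosen after seeing the data) and 0 to 1 when 1 tumour was left out. The log2 difference of Cck in CAF-like cells was 3.26 without Atf4wt/wt replicate 2 and within 1 standard error of 2.77 under 13 others. For the share of cells with Nppb, the exact test cannot go below 0.0286, or 0.0571 after adjustment unless Cck also reaches it, so its side of the threshold says nothing on stability. The difference ran from 1.01 to 6.11 percentage points with the thinning depth, and the unadjusted p rose to 0.0571 at 1,000 UMIs and without Atf4wt/wt replicate 4. The share difference for Cck ran from 0.485 to 2.70 points and the correlation r from 0.114 to 0.544. The cause of these changes was not tested.

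Replicate numbers are not stated to pair the tumours. Deviations of same-numbered tumours correlated at -0.071, -0.40, -0.25 and -0.31 in melanoma-like cells and at 0.14, -0.13, 0.0027 and 0.11 in CAF-like cells. In CAF-like cells, Atf4wt/wt replicates 1 and 4 correlated best with the Atf4D/D tumour of their own number, and no other tumour did in either class. These few values cannot exclude a pairing. With the replicate block, Nppb differed by 0.73 (adjusted p = 0.523), Cck by 0.79 in melanoma-like cells and by 2.51 in CAF-like cells.

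Sums of CAF-like cells held 40,826 to 1,477,982 UMIs and those of immune cells 47,840 to 492,417, against 24,163,682 to 49,008,342 in melanoma-like cells, so their levels rest on few UMIs. Levels in single clusters rest on few Cck-rich cells, so 1 cell can move them.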
